A study of Mus musculus with 6 samples.

Results

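The genes described are 10 enzymes that put double bonds into fatty acyl chains or lengthen them: the desaturases Scd1, Scd2, Fads1, Fads2 and Fads3, the elongases Elovl1, Elovl5, Elovl6 and Elovl7, and the elongation-cycle reductase Hsd17b12. They were taken by gene name from a list that was chosen with earlier results of these data known. Each was read through its probe set with the highest mean, and all 10 listed genes had a probe set tied to that gene alone, out of 19938 named genes. Expression was measured in C2C12 myotubes, the multinucleated cells that a mouse myoblast line forms in low serum. Of 6 groups, 3 received siRNA against Plin2, which encodes a lipid droplet coat protein, together with oleate, palmitate or carrier albumin (BSA) alone. The other groups received scrambled siRNA and the same treatments. Each group was 1 array. All cultures were differentiated for a week in 2% serum and transfected with 10 nM siRNA, and the fatty acids were given at 200 µM for 20 h, with 2.5 fatty acid molecules per BSA. The labels name 1 cell line and do not say whether the 6 cultures were grown on separate days, and a p-value here reflects the variation among the 6 arrays, which may be technical.

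Saturated acyl chains such as palmitate are lengthened to stearate by Elovl6 and made monounsaturated by stearoyl-CoA desaturases (Scd), which place a double bond at the ninth carbon and so make oleate from stearate. Fads2 and Fads1 act on dietary polyunsaturated chains at the sixth and the fifth carbon, with an elongation by Elovl5 between them. In each elongation cycle an Elovl enzyme adds a pair of carbons, Hsd17b12 reduces the product, a Hacd enzyme removes water and Tecr reduces it again. Desaturases take electrons from cytochrome b5 and its reductase, and many of these genes are known targets of the transcription factors SREBP and LXR.

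The values are log2 expression values from RMA, a method that brings arrays to a common distribution and combines the probes of each probe set into a single value. Array medians over 35556 probe sets lay between 4.94 and 5.02. Plin2 had log2 values of 7.63 with oleate, 7.45 with palmitate and 6.95 with BSA under Plin2 siRNA, against 10.03, 10.10 and 9.29 under scrambled siRNA, a fitted log2 change of -2.47 (SE 0.08, limma adjusted p = 2.3e-08). All 14 myotube markers on the list had log2 values above the median of every array (6.11 at the lowest). The 8 undifferentiated myoblast markers did as well (6.97 at the lowest), so these values do not set myotubes apart from myoblasts. A level of one probe set cannot be set against that of another, so the genes are compared only by their changes.

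The knockdown was compared with scrambled siRNA across the 3 treatments. Of the 10 genes, 6 fell with Plin2 siRNA and 0 rose: Fads2 and Elovl5 most, then Elovl7, Fads3, Fads1 and Scd1. A call is a limma p, adjusted by the Benjamini-Hochberg method over 21789 named probe sets, under 0.05, and 8.58% of the named probe sets fell by it, 8.5% rose and 17.1% were called in either direction. By unadjusted p, 8 of the 10 genes were lower, against 13.2% of named probe sets. The fitted change of all 10 genes was below 0, which was so for 48.2% of named probe sets. Their median log2 change was -0.41, against 0.01 over all named probe sets. These shares cover probe sets of every signal level. All of the 10 genes but Elovl7 had a mean signal above that of at least 80.2% of named probe sets, and shares at like signal were not taken.

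Fads2, the desaturase that starts polyunsaturated chain synthesis, showed the largest siRNA change of the 10. With Plin2 siRNA its log2 expression was 8.28 in oleate, 9.42 in palmitate and 8.93 in BSA, against 8.95, 10.26 and 9.92 with scrambled siRNA. It was lower with Plin2 siRNA in each treatment, but the ranges of the siRNA groups overlapped because the treatments themselves moved it by more than 1 log2 unit. The means were 8.88 ± 0.58 with Plin2 siRNA and 9.71 ± 0.68 with scrambled siRNA (SD, n = 3 arrays each), and the fitted log2 change was -0.83 (SE 0.08, limma adjusted p = 2.3e-05), or 0.561 times the scrambled level. The block for treatment carries this call: with siRNA as the only term the limma adjusted p was 0.12.

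Fads1, the desaturase that follows Fads2 in the pathway, had log2 values of 9.0 in oleate, 9.14 in palmitate and 9.01 in BSA with Plin2 siRNA, against 9.19, 9.66 and 9.55 with scrambled siRNA. Every Plin2 siRNA array lay below every scrambled one. The fitted log2 change was -0.42 (SE 0.08, limma adjusted p = 0.0040), and the adjusted p was 0.058 when all probe sets of the table entered the fit. Fads3, a relative reported to act on sphingoid bases, had 10.52, 10.69 and 10.61 with Plin2 siRNA, against 10.86, 11.13 and 11.13 with scrambled siRNA, in the same order of treatments. Its groups did not overlap either, and it fell by 0.43 on the log2 scale (SE 0.06, limma adjusted p = 0.00048).

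Promoter sequences are shown for Fads2 and Elovl5, which changed most with the siRNA, for Fads3, whose siRNA groups did not overlap, and for Elovl6, which passed no test. They come from RefSeq (GRCm38.p6), run from 250 bases before the annotated start to 50 after it, and are written 5′ to 3′ on the strand of the gene. Capitals mark the motifs found: the CCAAT box, the GC box (GGGCGG) and the E-box (CACGTG), on either strand.
Fads2 (chr19:10101454-10101753, minus strand): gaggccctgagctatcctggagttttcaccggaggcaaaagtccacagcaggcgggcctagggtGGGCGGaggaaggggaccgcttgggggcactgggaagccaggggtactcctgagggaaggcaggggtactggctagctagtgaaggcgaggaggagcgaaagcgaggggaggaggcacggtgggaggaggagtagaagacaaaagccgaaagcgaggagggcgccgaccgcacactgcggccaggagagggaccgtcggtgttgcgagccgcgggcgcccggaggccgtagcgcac
Fads3 (chr19:10041298-10041597, plus strand): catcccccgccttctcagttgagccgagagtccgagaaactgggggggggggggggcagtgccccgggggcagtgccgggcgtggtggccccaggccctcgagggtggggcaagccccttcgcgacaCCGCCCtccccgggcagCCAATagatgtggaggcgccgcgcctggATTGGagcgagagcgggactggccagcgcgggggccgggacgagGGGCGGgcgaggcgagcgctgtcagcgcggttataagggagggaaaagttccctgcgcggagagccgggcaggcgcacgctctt
Elovl5 (chr9:77917115-77917414, plus strand): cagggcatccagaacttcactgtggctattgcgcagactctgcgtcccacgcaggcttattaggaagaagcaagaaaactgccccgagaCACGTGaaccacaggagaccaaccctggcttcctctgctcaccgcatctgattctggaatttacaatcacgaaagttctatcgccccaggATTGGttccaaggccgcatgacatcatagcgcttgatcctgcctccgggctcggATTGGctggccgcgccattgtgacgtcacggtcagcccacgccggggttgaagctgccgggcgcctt
Elovl6 (chr3:129532136-129532435, plus strand): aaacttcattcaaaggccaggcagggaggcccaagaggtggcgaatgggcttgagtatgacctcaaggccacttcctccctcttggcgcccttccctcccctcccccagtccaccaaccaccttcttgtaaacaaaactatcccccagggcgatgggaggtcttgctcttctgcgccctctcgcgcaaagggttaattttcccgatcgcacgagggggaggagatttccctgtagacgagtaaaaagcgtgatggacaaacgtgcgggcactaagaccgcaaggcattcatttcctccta
Of the 10 genes, 7 had promoter windows, 8 in all (Elovl1 has 2). Fads1, Scd1 and Scd2 had no window, so their promoters were not read.

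The windows of Fads2, Fads3, Elovl5 and Elovl6 differed in these motifs. Fads2 had 1 GC box and no CCAAT box, Fads3 had 2 of each, Elovl5 had 2 CCAAT boxes and 1 E-box, and Elovl6 had none of the 3 motifs. Over all 32851 promoter windows, 37.4% held a CCAAT box, 35.7% a GC box and 7.15% an E-box. The sterol response element in the form TCACNCCAC, which 1.24% of all windows held on either strand, was in 0 of the 8 windows of these genes. Direct repeats of AGGTCA on either strand, with 4 bases between the copies (the LXR type, 0.0152% of all windows) or 1 base (the PPAR type, 0.0396%), were also in 0 of the 8. A missing match says only that these letters are not in these windows.

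Of the stearoyl-CoA desaturases, Scd1 passed the threshold with Plin2 siRNA and Scd2 did not. Scd1 had log2 values of 10.55 in oleate, 11.14 in palmitate and 10.93 in BSA with Plin2 siRNA, against 11.03, 11.44 and 11.38 with scrambled siRNA. It was lower with Plin2 siRNA in each treatment, although the Plin2 siRNA palmitate array lay above the scrambled oleate array. The fitted log2 change was -0.41 (SE 0.06, limma adjusted p = 0.00062), and the adjusted p was 0.079 with siRNA as the only term. Scd2 had 11.63, 12.45 and 12.27 with Plin2 siRNA, against 11.67, 12.33 and 12.39 with scrambled siRNA, so the groups covered nearly the same range. Its fitted log2 change was -0.01, with a 95% confidence interval of -0.14 to 0.12 (limma adjusted p = 0.96). The siRNA change of Scd1 was below that of Scd2 by 0.45 in oleate, 0.43 in palmitate and 0.34 in BSA. An exact two-sided sign-flip test over 3 pairs cannot give a p below 0.25, so whether Scd1 and Scd2 differ in their siRNA change is not shown. Whether probes for one Scd gene also bind transcripts of another was not tested.

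Among the elongases, Elovl5, which lengthens polyunsaturated chains, had log2 values of 9.07 in oleate, 9.31 in palmitate and 9.21 in BSA with Plin2 siRNA, against 9.73, 10.10 and 9.96 with scrambled siRNA. The highest Plin2 siRNA array lay below the lowest scrambled array. It fell by 0.73 on the log2 scale (SE 0.06, limma adjusted p = 1.9e-05), with similar differences in the treatments: -0.66 in oleate, -0.78 in palmitate and -0.75 in BSA. Elovl7, an elongase of long and very long chains, had 3.98, 3.88 and 3.88 with Plin2 siRNA, against 4.40, 4.47 and 4.42 with scrambled siRNA. These values are below the median of every array, and whether they rise above background was not tested. Its log2 change was -0.52 (SE 0.11, limma adjusted p = 0.0084), and the adjusted p was 0.053 without the scrambled BSA array, 0.055 without the Plin2 siRNA BSA array and 0.065 with all probe sets in the fit.

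Elovl1, which extends saturated chains to very long ones, and Hsd17b12, which serves every elongase, stood just outside the threshold. Elovl1 had log2 values of 9.94, 9.76 and 9.69 in oleate, palmitate and BSA with Plin2 siRNA, against 9.97, 10.19 and 9.98 with scrambled siRNA. The groups were apart by only 0.02 in oleate and by 0.43 in palmitate, and the fitted log2 change was -0.25 (limma adjusted p = 0.054). Hsd17b12 had 9.88, 9.91 and 9.79 with Plin2 siRNA, against 9.96, 10.22 and 10.01 with scrambled siRNA, a log2 change of -0.20 (limma adjusted p = 0.057). Both passed the threshold when the oleate array of either siRNA was left out, and when the lowest 33.3% of probe sets by mean were not fitted. Neither passed in the other 11 of 14 alternative fits. Elovl6, which makes stearate from palmitate, had 8.35, 8.23 and 8.49 with Plin2 siRNA, against 8.54, 8.46 and 8.44 with scrambled siRNA. It was lower with Plin2 siRNA in the fatty acid arrays and higher in BSA, and its log2 change was -0.12, with a 95% interval of -0.30 to 0.05 (limma adjusted p = 0.39).

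In 6 of the 10 genes (Fads1, Fads3, Elovl1, Elovl5, Elovl7 and Hsd17b12) all 3 Plin2 siRNA arrays lay below all 3 scrambled arrays, which held for 14.7% of named probe sets. Likewise 8 were lower with Plin2 siRNA in each of the 3 treatments, against 21.9% of named probe sets. The plot of values by array shows these separations and the spread that the fatty acids add in Fads2, Scd1 and Scd2.

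**Figure D1:**
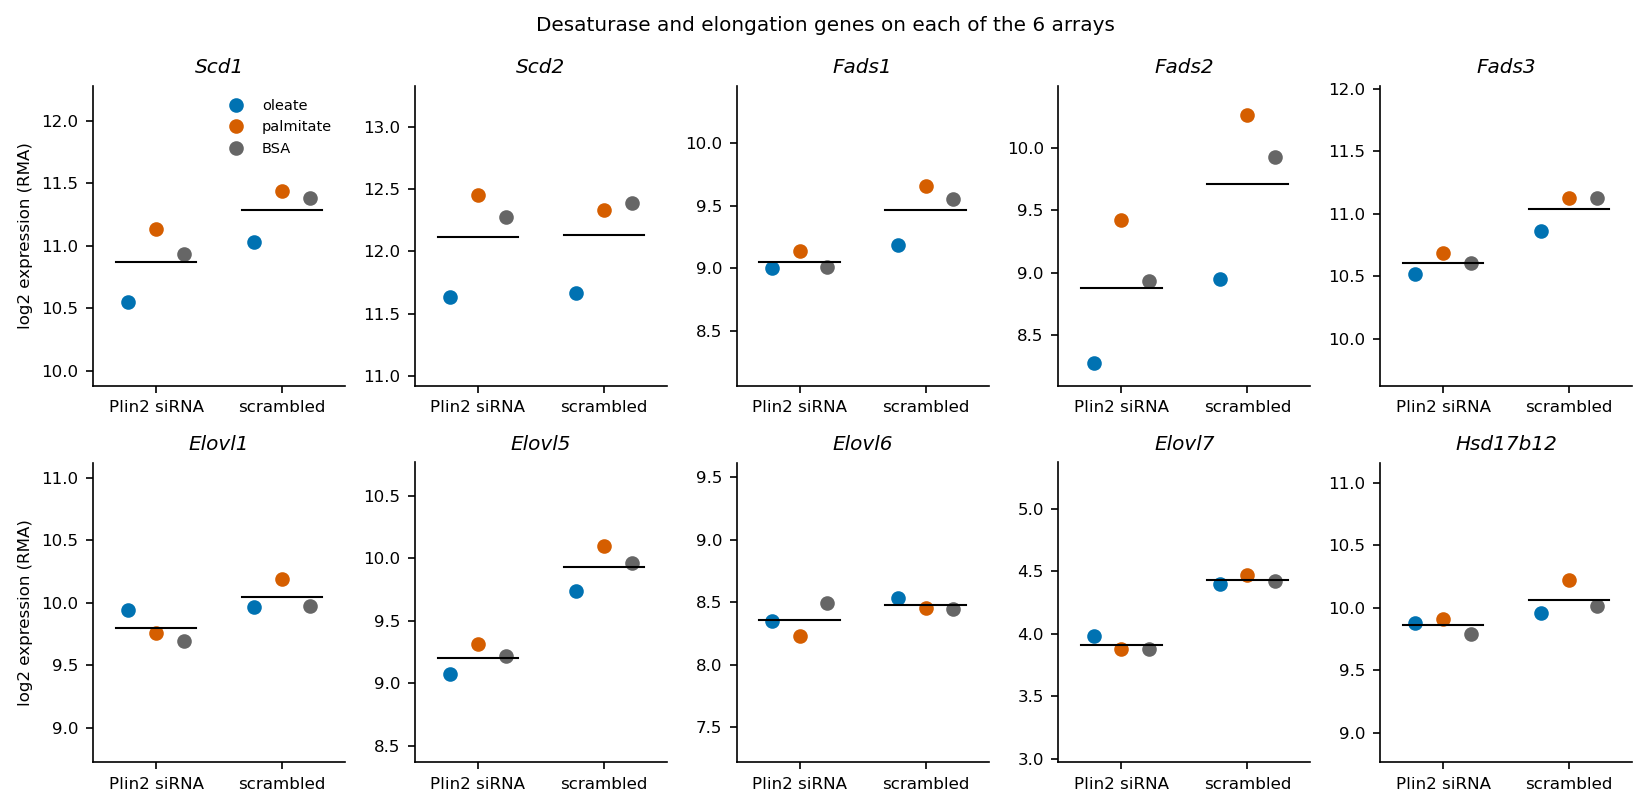
Log2 expression (RMA) of the 10 genes, with each point 1 array, coloured by treatment, and a line at the mean of the 3 arrays of an siRNA; every panel spans 2.4 log2 units, so distances can be compared between panels but levels cannot. Fads2 covers 8.28 to 9.42 with Plin2 siRNA and 8.95 to 10.26 with scrambled siRNA, and Elovl5 is split by siRNA with no overlap.

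Of 6 other desaturases and elongases, 2 fell with Plin2 siRNA and 0 rose (median log2 change -0.23), where 8.58% of named probe sets fell and 8.5% rose. Elovl4, an elongase of very long chains, fell by 0.63 on the log2 scale (limma adjusted p = 0.0017) and Fads6 by 0.33 (limma adjusted p = 0.037). The rest of this list, Scd3, Scd4, Elovl2 and Elovl3, had values below the median of every array, and whether these rise above background was not tested. Of 6 partners in the elongation cycle, 1 rose and 0 fell (median -0.06), a share of calls near the 17.1% of all named probe sets. The one that rose was the dehydratase Hacd3, with log2 values of 9.76, 9.80 and 9.75 in oleate, palmitate and BSA with Plin2 siRNA, against 9.09, 8.70 and 8.96 with scrambled siRNA (log2 change 0.85, SE 0.08, limma adjusted p = 4.4e-05). Its direction was opposite to that of Elovl5, Elovl7 and Elovl4. The muscle dehydratase Hacd1 stood at 0.12, Hacd2 at -0.22 and the reductase Tecr at -0.09, none past the threshold.

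Of 6 measured electron carriers of the desaturases, 1 rose and 2 fell, where 8.5% of named probe sets rose and 8.58% fell, and the median log2 change was -0.06. Cytochrome b5 type B, Cyb5b, rose by 0.37 (SE 0.06, limma adjusted p = 0.0016), while the reductases Cyb5r3 (-0.36, SE 0.06, limma adjusted p = 0.0012) and Cyb5r1 (-0.28, limma adjusted p = 0.048) fell. Cyb5a, the usual donor of microsomal desaturases, stood at 0.06 (limma adjusted p = 0.80). In acyl chain synthesis, which supplies the chains, 1 of 10 genes rose and 2 fell, with a list median of -0.04. Among 18 measured regulators of desaturase genes, 3 rose and 1 fell, a share of calls near the 17.1% of all named probe sets, with a median log2 change of 0.03. The gene that fell was Insig1, which holds SREBP in the endoplasmic reticulum and is itself an SREBP target (-0.46, SE 0.08, limma adjusted p = 0.0023). The 3 that rose were Ppara (0.54, limma adjusted p = 0.012), Mlx (0.22, limma adjusted p = 0.0496) and Srebf2, one of the genes for SREBP (0.20, limma adjusted p = 0.039). Srebf1 stood at -0.19 (limma adjusted p = 0.13).

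Many markers of differentiation also differed between the siRNA groups, not all in the same direction. Of 14 myotube markers 8 fell and 1, Actn2, rose (0.81), where 8.58% of named probe sets fell and 8.5% rose. Their summed log2 values were 149.74 to 151.20 on the Plin2 siRNA arrays and 150.98 to 156.08 on the scrambled arrays. These ranges overlapped, because the scrambled palmitate sum lay below the highest Plin2 siRNA sum. Of 8 undifferentiated myoblast markers 5 rose and 1, Cdh15, fell (-0.62), with sums of 70.8 to 72.2 on the Plin2 siRNA arrays and 67.8 to 69.1 on the scrambled arrays. Of 7 measured adipocyte markers 0 passed the threshold (sums 31.7 to 33.0 with Plin2 siRNA and 30.9 to 32.7 with scrambled siRNA), and so did 0 of 4 osteoblast markers (18.6 to 18.8 and 18.2 to 19.2). The part of these markers in the changes of the desaturases and elongases was not tested, and fewer cells of a type cannot be told apart from less RNA per cell.

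Oleate, the product of the Scd reaction, was then compared with BSA. Of the 10 genes 2 fell, Fads2 and Scd2, and 0 rose, where 0.0413% of named probe sets fell and 0.0734% were called in either direction. Fads2 was lower with oleate by 0.65 in Plin2 siRNA cells and by 0.98 in scrambled cells, and the fitted log2 change was -0.81 (SE 0.09, 2 pairs of arrays, 95% interval -1.02 to -0.61, limma adjusted p = 0.0080). Scd2 was lower by 0.64 in Plin2 siRNA cells and by 0.72 in scrambled cells, with a fitted change of -0.68 (SE 0.07, limma adjusted p = 0.0064), or 0.624 times the BSA level. In Scd2 both oleate arrays lay below both BSA arrays, while in Fads2 the oleate array of scrambled cells (8.95) lay level with the BSA array of Plin2 siRNA cells (8.93). These calls were lost without the scrambled BSA array (limma adjusted p = 0.14 for each), without the intensity trend (0.58) and with all probe sets in the fit (0.52).

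The other desaturases stood lower with oleate without passing. Scd1 stood at -0.37 (SE 0.07, limma adjusted p = 0.16), made of -0.38 in Plin2 siRNA cells and -0.35 in scrambled cells, and it passed when only the BSA and oleate arrays were fitted (limma adjusted p = 0.032). It also passed without the Plin2 siRNA palmitate, the scrambled palmitate or the scrambled oleate array. In the other 10 of 14 alternative fits it did not pass. Fads1 stood at -0.19 (limma adjusted p = 0.81), with -0.01 in Plin2 siRNA cells and -0.37 in scrambled cells, and Fads3 at -0.18 (0.73). Elovl5 stood at -0.18 (limma adjusted p = 0.76). The remaining elongation genes lay between -0.03 and 0.12, in the order Elovl6, Hsd17b12, Elovl7 and Elovl1, and none of these had the same sign in both siRNAs. There were 6 genes (Fads1, Fads2, Fads3, Scd1, Scd2 and Elovl5) that had oleate as the lowest of the 3 treatments with either siRNA, which 15.4% of named probe sets did. By unadjusted p under 0.05, 5 of the 10 were lower with oleate, against 3.67% of named probe sets.

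Palmitate, the saturated substrate of elongation by Elovl6, was compared with the same BSA arrays. None of the 10 genes passed the threshold in limma, where 0.00918% of named probe sets did, and 1, Fads2, had an unadjusted p under 0.05, against 5.2% of named probe sets. Fads2 stood at 0.41 (SE 0.09, limma adjusted p = 0.68), with 0.50 in Plin2 siRNA cells and 0.33 in scrambled cells. It passed when only the BSA and palmitate arrays were fitted (limma adjusted p = 0.0013), and likewise when the oleate array of either siRNA was left out. In the other 11 of 14 alternative fits Fads2 did not pass. Scd1 stood at 0.13, Scd2 at 0.06, Fads1 at 0.12 and Fads3 at 0.04, and the elongation genes lay between -0.13 for Elovl6 and 0.16 for Hsd17b12. The 95% intervals excluded changes beyond 0.22 for Scd2 and beyond 0.20 for Fads3 on the upper side.

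**Figure D2:**
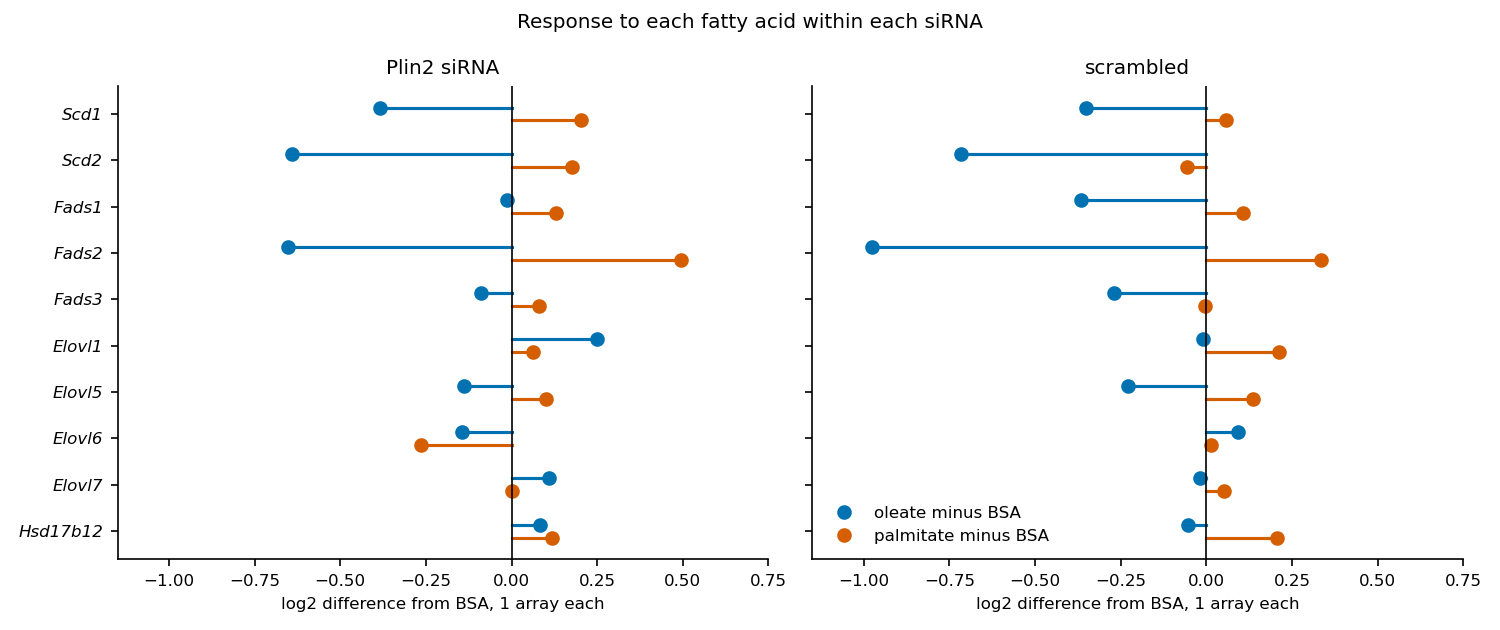
Log2 difference from the BSA array of the same siRNA for oleate and palmitate, 1 array each, in Plin2 siRNA cells (left) and scrambled cells (right). Oleate lowered Fads2 by 0.65 and Scd2 by 0.64 in Plin2 siRNA cells and by 0.98 and 0.72 in scrambled cells, while the points for palmitate lie between -0.27 and 0.50.

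Oleate is longer than palmitate and carries a double bond, and the saturated chain was set directly against it at equal dose and duration. The oleate arrays serve this comparison and the one with BSA. Of the 10 genes 3, Fads2, Scd2 and Scd1, were higher with palmitate and 0 were lower, where 0.142% of named probe sets were higher (0.262% in either direction). By unadjusted p under 0.05, 6 were higher, against 4.36%. In 4 genes (Fads1, Fads2, Scd1 and Elovl5) palmitate stood above BSA and BSA above oleate with either siRNA, an order that 4.08% of named probe sets had. Fads2 had log2 values of 9.42 and 10.26 with palmitate (Plin2 siRNA and scrambled), against 8.28 and 8.95 with oleate. The fitted difference was 1.23 (SE 0.09, 95% interval 1.03 to 1.43, limma adjusted p = 0.00069), or 2.35 times the oleate level.

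Scd2 had log2 values of 12.45 and 12.33 with palmitate (Plin2 siRNA and scrambled), against 11.63 and 11.67 with oleate, a difference of 0.74 (SE 0.07, limma adjusted p = 0.0018), or 1.67 times. Scd1 had 11.14 and 11.44 with palmitate, against 10.55 and 11.03 with oleate, a difference of 0.50 (SE 0.07, limma adjusted p = 0.025). In Scd2 both palmitate arrays lay above both oleate arrays. In Scd1 the palmitate array of Plin2 siRNA cells lay just above the oleate array of scrambled cells. Without the intensity trend the adjusted p was 0.12 for Fads2, 0.24 for Scd2 and 0.41 for Scd1, and centring each array on its median ended the call of Scd1 alone (0.10).

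Genes of the polyunsaturated branch other than Fads2 differed less between the fatty acids. Fads1 stood at 0.31 (95% interval 0.09 to 0.52, limma adjusted p = 0.37), with 0.14 in Plin2 siRNA cells and 0.47 in scrambled cells. It passed without the Plin2 siRNA oleate array, but not in the other 13 of 14 alternative fits. Elovl5 stood at 0.30 (limma adjusted p = 0.24) and Fads3 at 0.22 (0.41). For Elovl1, Elovl6, Elovl7 and Hsd17b12 the differences were 0.02, -0.10, -0.02 and 0.15. Their 95% intervals lay within -0.32 and 0.33. Insig1 had log2 values of 10.94 and 11.13 with palmitate (Plin2 siRNA and scrambled), against 9.68 and 10.29 with oleate (difference 1.05, SE 0.10, limma adjusted p = 0.0013). Srebf1 stood at 0.44 (limma adjusted p = 0.12). Besides Insig1, 0 of the other 17 regulators passed the threshold, which 0.262% of named probe sets did. Of the 14 myotube markers 1 did, Myh4, a fast myosin heavy chain, which was lower with palmitate (-0.77, limma adjusted p = 0.048), and its part in these differences was not tested.

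**Figure D3:**
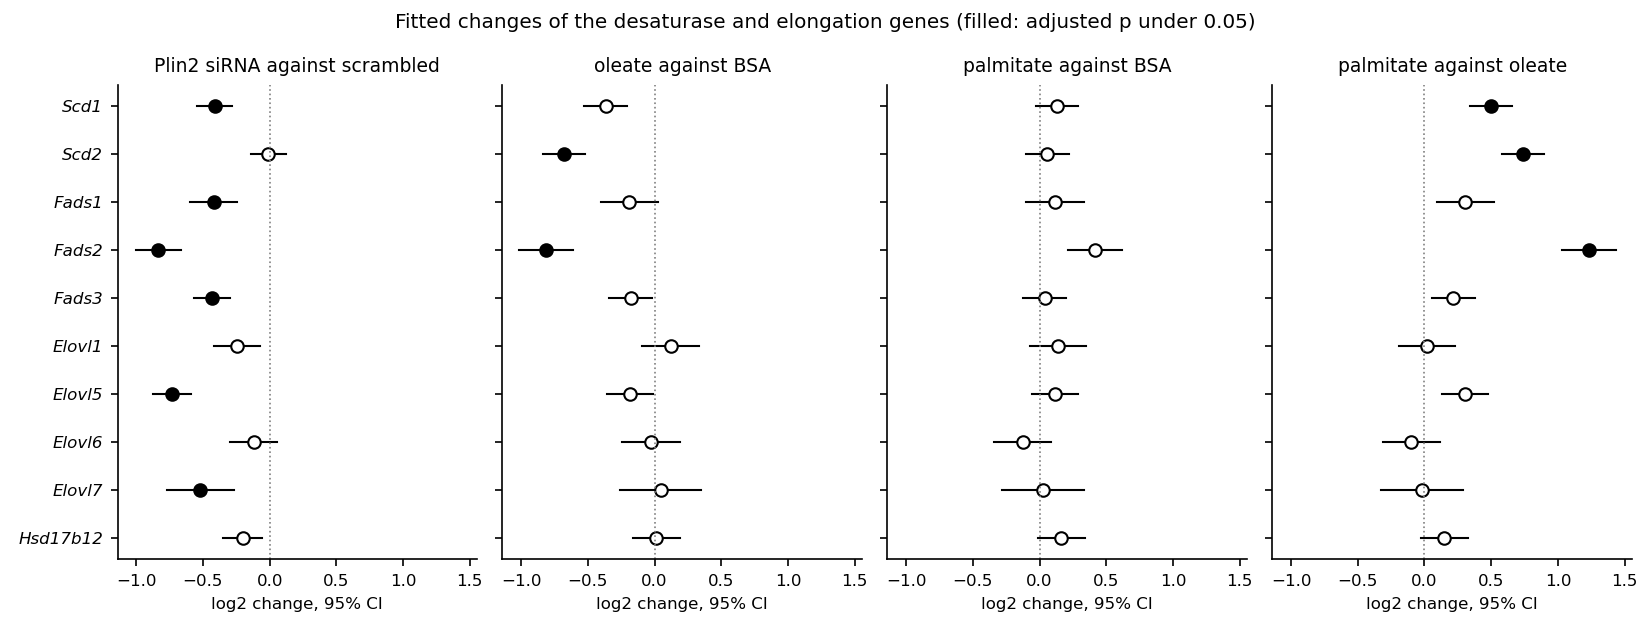
Fitted log2 changes of the 10 genes with 95% confidence intervals for Plin2 siRNA against scrambled (n = 3 pairs of arrays) and for oleate against BSA, palmitate against BSA and palmitate against oleate (n = 2 pairs each); filled points have a limma adjusted p under 0.05. Fads2 stands at -0.83 in the first panel and 1.23 in the last, and Scd2 is at -0.01 in the first and 0.74 in the last.

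Whether the siRNA change differed between the fatty acid arrays and the BSA arrays was tested with an interaction term. None of the 10 genes passed in limma, nor did any of the 21789 named probe sets (0%), and 0 of the 10 had an unadjusted p under 0.05, against 2.53% of named probe sets. The estimates were 0.24 for Fads2 (95% interval -0.13 to 0.61), 0.19 for Fads1 (-0.20 to 0.58) and -0.26 for Elovl6 (-0.65 to 0.14), and the others lay between 0.02 and 0.16. The standard error for Fads2 was 0.18, against 0.08 for its siRNA change in the model without this term. The difference in the oleate response, Plin2 siRNA cells less scrambled cells, was 0.35 for Fads1, 0.33 for Fads2 and 0.26 for Elovl1, and between -0.24 and 0.18 for the rest. That difference rests on 4 arrays per gene and has no test of its own.

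Genes of the Fads and Scd groups lie next to each other on chromosome 19 (RefSeq gene order, GRCm38.p6), and their protein-coding neighbours were read for comparison. The order of the first group is Fads3, Fads2 and Fads1, and all 3 fell with Plin2 siRNA. Of the 10 genes that flank them, 5 on each side, 1 rose and 2 fell with the siRNA, where 8.5% of named probe sets rose and 8.58% fell. Fth1, a ferritin subunit, rose by 0.36, and Best1, a chloride channel, and Dagla, a diacylglycerol lipase, fell by 0.41 and 0.38. The genes adjacent to the group, Rab3il1 and Fen1, stood at 0.04 and -0.09.

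The order of the second group is Scd3, Scd2, Scd4 and Scd1. With palmitate against oleate, Scd2 and Scd1 passed, and Scd3 stood at 0.32 and Scd4 at 0.43 (limma adjusted p = 0.51 and 0.45). The log2 values of Scd3 (3.58 to 4.05) and Scd4 (3.83 to 4.50) were below the median of every array. Whether they rise above background was not tested. Of the 9 measured flanking genes 0 passed, with differences of -0.18 to 0.23, where 0.262% of named probe sets were called in either direction. With Plin2 siRNA, Scd1 was the gene of the group that passed, with Scd3 at -0.15, Scd2 at -0.01 and Scd4 at -0.10. Of the 9 flanking genes 2 rose and 0 fell, where 17.1% of named probe sets were called in either direction.

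**Figure D4:**
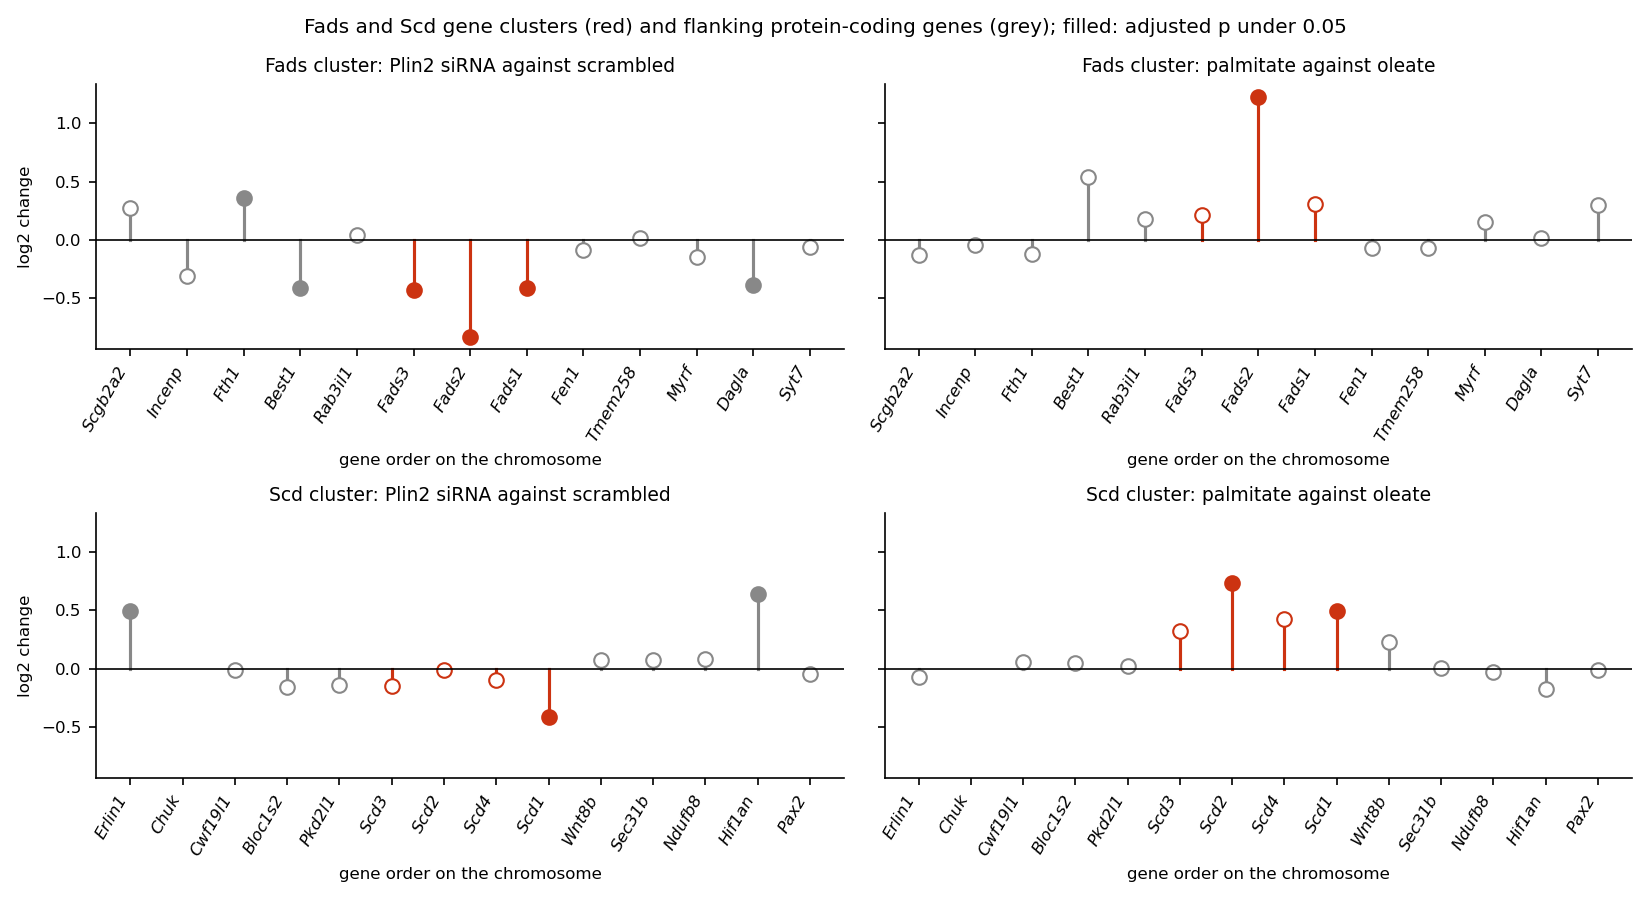
Fitted log2 changes in gene order along the Fads group (top) and the Scd group (bottom), red, with up to 5 protein-coding neighbours on each side in grey, for Plin2 siRNA against scrambled (left) and palmitate against oleate (right); filled points have a limma adjusted p under 0.05, and Chuk had no probe set of its own. Fads3, Fads2 and Fads1 lie at -0.43, -0.83 and -0.42 on the left, and Fads2 stands out at 1.23 on the right.

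Across the 6 arrays, the profiles of the 10 genes had a median Pearson correlation of 0.75 over 45 pairs. In 19 pairs it was above 0.8, the highest between Fads3 and Elovl5 (0.99) and between Fads2 and Scd1 (0.98), and the lowest between Scd2 and Elovl6 (-0.27). With the values of each gene centred and averaged over the 10, the array means were -0.34 in oleate, -0.07 in palmitate and -0.18 in BSA with Plin2 siRNA, against -0.03, 0.36 and 0.26 with scrambled siRNA. Among 4792 other genes with an SD of at least 0.2, the profiles most like this mean were those of Adamts1 (correlation 0.997), Gadd45b (0.99), Ier5 (0.99), Hspb1 (0.99), Mfsd2a (0.99), Sqle (0.99), Mafk (0.98) and Mtbp (0.98). Sqle is squalene epoxidase of sterol synthesis, and Mfsd2a is a transporter of lysophospholipids that carry polyunsaturated chains. The genes most like Fads2 were Mrps18b (0.99), Zfp459 (0.99), Ccdc88b (0.99), Gm5478 (0.98) and Mttp (0.98), and those most like Scd1 were Mrps18b (0.99), Tlcd1 (0.99), Mid1ip1 (0.98), Fads2 (0.98) and Slc40a1 (0.98). These correlations describe 6 arrays that share siRNAs and treatments, and many genes reach such values over so few points. The share of all gene pairs above 0.8 was not taken, so the 19 of 45 pairs cannot be read against it.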

How the data were processed

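The authors deposited log2 expression values, 1 per probe set, for 6 Affymetrix arrays, made by RMA per the submitters' processing notes. The RMA version and the genome build: not given in the sources used here. Per the labels' protocols, each array took 100 ng of RNA of integrity above 8.0. Base 2 was inferred from the method and the size of the values, which were used as deposited, with no filter on low signal. GEO's platform annotation tied 21789 probe sets to 1 symbol and 1621 to several, and 12146 were unnamed. By Entrez ID 21698 were matched to RefSeq and 0 symbols changed. All 10 genes had 1 probe set each.

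Linear models were run in limma 3.58.1 (R 4.3.3) over the 21789 probe sets (treatment and siRNA as terms, eBayes with an intensity trend), with 2 residual and 9.21 prior degrees of freedom. Adjustment was by Benjamini-Hochberg. The error of an siRNA change thus combines its variation between 3 treatments with a prior estimate from all fitted probe sets. That of a fatty acid change combines its variation between 2 siRNAs with the same prior. The prior carries more degrees of freedom (9.21) than the gene's own values (2). The interaction model left 1 residual degree of freedom. No condition has a replicate, and the number of arrays limits the precision. The fit was tested on simulated data. Genes were named by list, plus Plin2, members of the other lists past the threshold (at most 5 by size), a few carriers, partners and regulators chosen by name, and the genes most alike by Pearson correlation; flanking genes were chosen by position. The 10 genes and all lists were chosen with earlier results of these data known. Alternatives were the prior, the probe sets fitted, a filter on low signal, 2 scalings, no moderation, other terms or arrays, and each array left out.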

Additional observations from a re-analysis of the deposited data

How the results depend on the processing

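The count of 3721 probe sets called with Plin2 siRNA was 2403 with no intensity trend in the prior, 2159 over all probe sets and 0 without moderation, and 2213 to 3836 when single arrays were left out. The count of these genes called, 6, was 0 without moderation and 5 to 8 without single arrays. For oleate, 16 probe sets became 2 without the trend, 0 with all probe sets or without moderation, 31 without the lowest 33.3% by mean, 64 on the 4 arrays alone and 3 to 262 without single arrays. The 2 genes called became 0 in the fits without the trend or moderation or with all probe sets, and 0 to 3 without single arrays. The oleate split of 7 up and 9 down was 7 and 5 after centring. For palmitate, 2 probe sets became 0 with all probe sets or without moderation, 119 on the 4 arrays alone and 2 to 117 without single arrays, with 1 gene called on the 4 arrays and 0 to 1 without single arrays. For palmitate against oleate, 57 became 0 without the trend, without moderation or with all probe sets, 25 after quantile normalization, 86 on the 4 arrays and 30 to 538 without single arrays. The 3 genes called became 0 in those fits with a count of 0, and were 3 to 4 without single arrays. The interaction count of 0 became 1 without moderation. The cause of these shifts was not tested.

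Some changes that passed no test turned in sign: Elovl1 between the fatty acids after centring (-0.0096), and the Elovl5 interaction after quantile normalization (-0.0038). Without single arrays, the oleate change ran from -0.047 to 0.29 for Elovl1, -0.16 to 0.10 for Elovl6, -0.033 to 0.12 for Elovl7 and -0.076 to 0.10 for Hsd17b12. The palmitate change ran from -0.0026 to 0.28 for Elovl1, -0.25 to 0.0020 for Elovl6, -0.032 to 0.085 for Elovl7, -0.028 to 0.10 for Fads3 and -0.039 to 0.16 for Scd2. The palmitate to oleate difference ran from -0.15 to 0.18 for Elovl1 and -0.10 to 0.059 for Elovl7, and the siRNA change of Scd2 from -0.075 to 0.043. Over all alternatives, 560 gene changes kept direction and side of the threshold, 30 lost a call, 14 gained one and 21 turned in sign. The 560 include changes that passed in no fit, and the fits with averaged probe sets. The interaction could not be fitted without 1 array, and averaging a gene's probe sets changed nothing, since each gene has 1. The labels give no replicate numbers, so arrays were paired by treatment or by siRNA, a term in every model but the one with siRNA alone.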

Other observations

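Acyl chains made by these enzymes are activated and built into phospholipids by other genes. Of 14 measured genes of acyl chain activation and phospholipid remodelling, 2 rose and 3 fell with Plin2 siRNA in limma, where 8.5% of named probe sets rose and 8.58% fell, and 9 of the 14 did not pass. Acsl5 (-0.54) and Acsl4 (-0.47), which activate fatty acids and in the case of Acsl4 favour arachidonate, fell, as did the acyltransferase Lpcat4 (-0.37). The phospholipase Pla2g6 (0.64) and the acyltransferase Mboat1 (0.37) rose. The adjusted p-values of these genes ran from 0.00026 to 0.028. With oleate against BSA, palmitate against BSA and palmitate against oleate, 0 of the 14 passed. Of named probe sets 0.0734%, 0.00918% and 0.262% passed in these comparisons, so a count of 0 among 14 genes is near those shares.

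Of 6 measured genes of the peroxisomal steps that finish very long polyunsaturated chains, 1 rose with Plin2 siRNA, the transporter Abcd2 (0.53, limma adjusted p = 0.010). That share is near the 17.1% of named probe sets called in either direction. Among 3 measured desaturases of sphingolipids and ether lipids, 1 fell, Tmem189, the plasmanylethanolamine desaturase (-0.56, limma adjusted p = 0.00039), where 8.58% of named probe sets fell.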
